A study of Mus musculus with 2 samples.

Results

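A set of 9 genes that make, handle or sense retinoic acid was followed in the apex of embryonic mouse hearts. They were chosen by gene symbol, and all 9 were found among the 29383 genes of the authors' table, each as 1 gene model. Aldh1a1 and Aldh1a2 encode retinal dehydrogenases, Dhrs3 a retinal reductase, Crabp1 and Crabp2 cellular retinoic acid binding proteins, and Rara, Rarb, Rarg and Rxra nuclear receptors. RNA came from hearts at stage E12.5, with the apices of 8 hearts combined per genotype into 1 library. The mutant pool carried Nkx2-5cre and Ezh2f/f, so that both Ezh2 copies were floxed, and the heterozygote pool carried Nkx2-5cre and Ezh2f/+, with 1 floxed copy. Both pools therefore carried the Cre driver, and neither was wild type. Nkx2-5 is active in the heart muscle lineage, so cells outside that lineage can keep Ezh2, the catalytic subunit of the Polycomb complex PRC2. With 1 library per genotype, differences have no replicate check, no p-value was computed, and the intervals, at the 95% level, cover counting error alone.

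Retinoic acid is made from vitamin A in a pair of oxidation steps, of which retinal dehydrogenases catalyse the last. Dhrs3 turns retinal back into retinol and so holds synthesis down, while Cyp26 enzymes break retinoic acid down. The acid is carried in the cytoplasm by Crabp proteins and acts through heterodimers of a retinoic acid receptor and a retinoid X receptor, which sit on response elements in target genes. In the mouse embryo it patterns the inflow end of the heart tube, and later the epicardium makes it through Aldh1a2 and myocardial growth depends on Rxra. Rarb, Dhrs3, Crabp2 and Cyp26a1 are themselves classical retinoic acid target genes.

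The libraries held 14122579 reads in the mutant and 13944617 in the heterozygote. Ezh2 itself had 319 reads in the library labelled mutant and 493 in the heterozygote, a mutant-to-heterozygote ratio of 0.601 (0.521 to 0.694). This count covers the whole gene, floxed exons and others, so it can check the deletion only in part. The labels call the cells cardiomyocytes and name no sort, and 10 cardiomyocyte markers summed to 47415 CPM (scaled counts per 1000000 reads) in the mutant and 48589 CPM in the heterozygote. Markers of other cells were present too: endothelial and endocardial genes summed to 1059 CPM in the mutant and 1098 CPM in the heterozygote, and mesenchymal genes to 1264 CPM in the mutant and 1297 CPM in the heterozygote. Erythroid genes summed to 3409 CPM in the mutant and 4283 CPM in the heterozygote, and leukocyte genes to 36.9 CPM in the mutant and 42.9 CPM in the heterozygote. In such a mixture, fewer cells of a type and less RNA per cell cannot be told apart.

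Crabp1 stood farthest from 1 among the 9 genes, and Dhrs3 came next. Of the 8 members that reached 1 CPM in a library, 1 was at least 2-fold higher in the mutant, against 0.605% of the 16185 genes tested for size, and 0 were at least 2-fold lower, against 0.173%. At 1.5-fold, 2 were higher, against 3.45% of all genes, and 0 were lower, against 1.88%. These sizes are log2((mutant CPM + 1)/(heterozygote CPM + 1)), on which the 8 members had a median of 0.24 and all genes a median of -0.01. After removal of a trend of the log2 ratio on GC content and transcript length across all genes, the members' median was 0.14. The median of all genes with a GC value was then -0.01. Of the 8 members, 5 were then above 0, and the share of all genes above 0 was not computed after removal. The plain ratio was above 1 for 6 of the 8, against 48.8% of all genes. Its counting interval lay above 1 for 5 of the 8, against 17.4% of all genes, and below 1 for 0, against 19.1%. Crabp2, the member under 1 CPM, had 9 reads in each library.

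**Figure D1:**
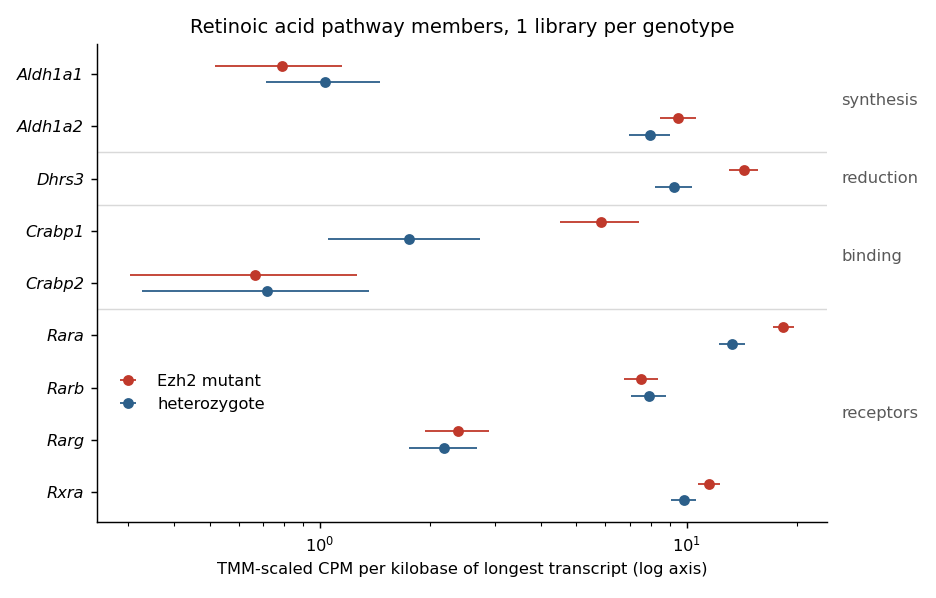
Scaled CPM per kilobase of the longest annotated transcript (log axis) for the 9 genes, grouped by role, with the Ezh2 mutant library above the heterozygote library and bars for the 95% counting interval. The intervals of the genotypes are apart for Crabp1, Dhrs3, Rara and Rxra, and Rara is the highest in both libraries.

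Both dehydrogenase genes were measured, at very different levels. Aldh1a2 (chromosome 9, 71063656 to 71144050), the main retinoic acid synthesis enzyme of the early mouse embryo, had 312 reads in the mutant and 243 in the heterozygote. The mutant library was the higher, with 21.4 CPM against 18.0 CPM in the heterozygote and a ratio of 1.19 whose interval of 1.01 to 1.42 just excluded 1. Its log2 ratio of 0.24 was 0.28 after the trend on GC content and length was removed. Aldh1a2 is made by the epicardium at this stage, and 12 other epicardial markers summed to 269 CPM in the mutant and 279 CPM in the heterozygote. Of the 11 that reached 1 CPM, 3 were higher in the mutant and 8 lower, with a median log2 ratio of -0.08. The most abundant were the uroplakin gene Upk3b, with 59.0 CPM in the mutant and 63.2 CPM in the heterozygote, and the T-box gene Tbx18, with 50.97 CPM in the mutant and 41.7 CPM in the heterozygote. The part of the epicardium in the Aldh1a2 value was not tested beyond these levels.

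Aldh1a1 (chromosome 19, 20676472 to 20717952), an enzyme of the same family that also oxidises other aldehydes, had 27 reads in the mutant and 33 in the heterozygote. The heterozygote was nominally the higher, but the mutant-to-heterozygote ratio of 0.760 had an interval of 0.440 to 1.30, so that no difference was detectable at this depth. Aldh1a7, its close relative on the same chromosome, had 5 reads in the mutant and 6 in the heterozygote, and the sources used here do not say how reads shared by such copies were assigned. Aldh1a1 is abundant in liver, and 8 liver markers summed to 2.34 CPM in the mutant and 5.10 CPM in the heterozygote. Of the 3 that reached 1 CPM, 0 were higher in the mutant and 3 lower, with a median log2 ratio of -0.42. Among these, Apoa2 had 8 reads in the mutant and 22 in the heterozygote (ratio 0.338, 0.130 to 0.788). Alb, the albumin gene, had 1 read in each library, and Afp, the alpha-fetoprotein gene, had 0 in the mutant and 6 in the heterozygote. The part of liver RNA in the Aldh1a1 value was not tested. The remaining retinal dehydrogenase gene, Aldh1a3, stayed under 1 CPM with 9 reads in the mutant and 6 in the heterozygote.

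Dhrs3 (chromosome 4, 144482730 to 144518112), whose product returns retinal to retinol, had 486 reads in the mutant and 292 in the heterozygote. The mutant was the higher by 1.55-fold (1.33 to 1.79), at 33.4 CPM against 21.6 CPM in the heterozygote. Its log2 ratio of 0.61 was above that of 96.9% of the genes tested for size and lay just past the 1.5-fold threshold. After removal of the trend on GC content and length it was 0.60. A gene model on the opposite strand overlaps Dhrs3 and had 2 reads in the mutant and 0 in the heterozygote.

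Of the binding protein genes, 1 reached 1 CPM. Crabp1 (chromosome 9, 54612615 to 54620916), a carrier that restrains free retinoic acid, had 68 reads in the mutant and 19 in the heterozygote. The mutant was higher by 3.33-fold (1.98 to 5.86), at 4.67 CPM against 1.40 CPM in the heterozygote, and its log2 ratio of 1.24 was above that of 99.7% of genes tested for size. The heterozygote level was itself past the 1 CPM floor, and the log2 ratio was 1.28 after removal of the trend on GC content and length. That trend was fitted on genes averaging 5 CPM or more, a level that Crabp1 reached in neither library. Crabp2 (chromosome 3, 87752615 to 87757294), which hands retinoic acid to its receptor, had 9 reads in both libraries and a ratio of 0.929 (0.327 to 2.64). A ratio as large as that of Crabp1 falls outside this interval, while a 2-fold difference in either direction lies inside it, and the intervals of the binding protein genes overlap. Crabp1 marks neural crest and mesenchyme in the mouse embryo, so neural crest and glial markers were listed beside it. They summed to 12.6 CPM in the mutant and 11.6 CPM in the heterozygote, with 3 of 8 reaching 1 CPM, of which 2 were higher in the mutant and 1 lower. The receptor gene Erbb3 had 6.04 CPM in the mutant and 5.54 CPM in the heterozygote, and the neurotrophin receptor gene Ngfr, the lower one, had 17 reads in the mutant and 19 in the heterozygote (ratio 0.831, 0.406 to 1.69). The defining crest gene Sox10 had 3 reads in the mutant and 0 in the heterozygote, and Foxd3 had 0 in both, which allows up to 3 counts in each library. Of 7 mesenchymal genes, all over 1 CPM, 3 were higher in the mutant and 4 lower. The fibrillar collagen genes were the most abundant, Col1a1 with 428 CPM in the mutant and 416 CPM in the heterozygote, and Col1a2 with 325 CPM in the mutant and 344 CPM in the heterozygote. Dcn, the decorin gene and the 1 of the list at least 1.5-fold lower in the mutant, had 593 reads in the mutant and 862 in the heterozygote (ratio 0.639, 0.575 to 0.711). The part of either cell type in the Crabp1 value was not tested beyond these levels.

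The receptor genes held most of the members' reads and differed less. Rara (chromosome 11, 98799010 to 98836256), the broadly expressed receptor, had 902 reads in the mutant and 608 in the heterozygote. The mutant was the higher by 1.38-fold (1.24 to 1.53), at 61.96 CPM against 44.9 CPM in the heterozygote. Rxra (chromosome 2, 27532721 to 27618839), the heterodimer partner that the growing ventricle needs, had 822 reads in the mutant and 650 in the heterozygote. It too was higher in the mutant, by 1.18-fold (1.06 to 1.30), at 56.5 CPM against 48.1 CPM in the heterozygote. Rarg (chromosome 15, 102065371 to 102087914), a receptor known from skin and skeleton, had 102 reads in the mutant and 87 in the heterozygote, with a ratio of 1.09 (0.810 to 1.47). Rarb (chromosome 14, 17263354 to 17651648), itself induced by retinoic acid, had 340 reads in the mutant and 331 in the heterozygote, a ratio of 0.954 (0.818 to 1.11). For these last receptors the interval included 1, and that of Rarb leaves no room for a difference of the size seen in Dhrs3 or Rara in the upward direction.

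The receptor values were set beside base composition. Across all genes the log2 ratio climbed with the GC content of the transcript, and the transcripts of Rara (59.2% GC), Rarg (58.8%) and Rxra (57.0%) are GC-rich. The 684 tested genes within 1 percentage point of Rara had a median log2 ratio of 0.16, with quartiles of 0.003 and 0.31, while Rara itself stood at 0.45. The 1106 genes like Rxra had a median of 0.13 (quartiles -0.02 and 0.28), against 0.23 for Rxra. Once the trend on GC content and length was removed, the log2 ratio of Rara was 0.25 and that of Rxra 0.03. Both values lay under the counting intervals before removal (0.31 to 0.60 and 0.08 to 0.38). No interval was computed after removal, so these values do not tell whether a difference beyond counting error remained. Rarg was at -0.07 in place of 0.11, and Rarb at -0.01 in place of -0.06. The 1059 genes near Crabp1 (57.4% GC) had a median of 0.14 and an upper quartile of 0.29, against 1.24 for Crabp1.

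**Figure D2:**
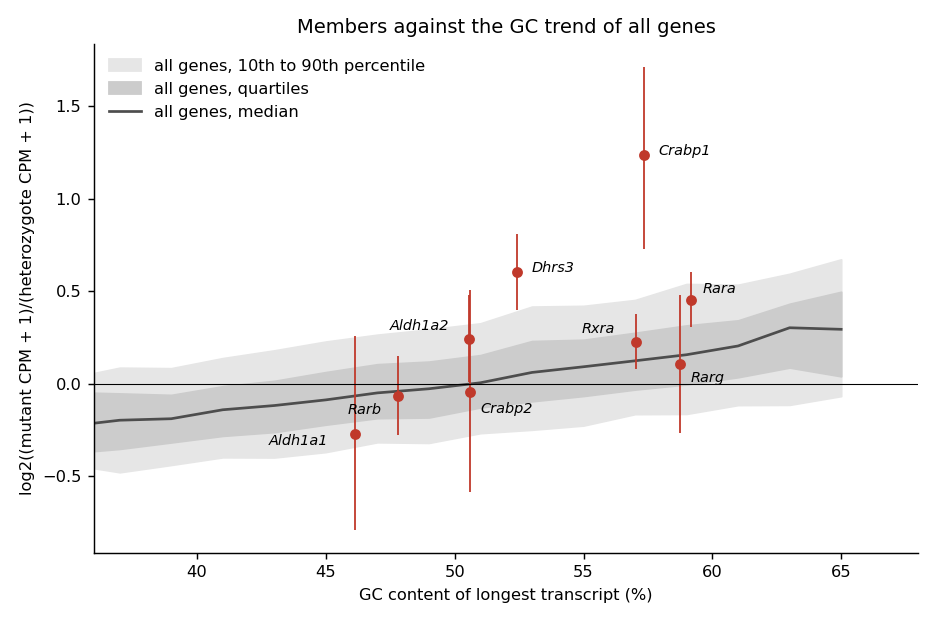
Log2 ratio of mutant over heterozygote (with 1 CPM added) against the GC content of the longest transcript in percent. The line and bands give the median, quartiles and the 10th and 90th percentiles of all genes tested for size in bins of 2 percentage points, and points with 95% counting intervals are the 9 genes. Crabp1 and Dhrs3 lie above the band of all genes, while Rxra and Rarg lie inside the quartiles.

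Levels between genes were compared per kilobase of the longest annotated transcript. In the mutant the order ran from Rara (18.3 scaled CPM per kilobase) through Dhrs3 (14.3), Rxra (11.5), Aldh1a2 (9.47), Rarb (7.51), Crabp1 (5.82) and Rarg (2.37) to Aldh1a1 (0.787) and Crabp2 (0.664). Neighbours in this order had separate counting intervals, except Rarb and Crabp1, and Aldh1a1 and Crabp2. In the heterozygote the order per kilobase ran from Rara (13.3) through Rxra (9.80), Dhrs3 (9.24), Aldh1a2 (7.93), Rarb (7.87), Rarg (2.18), Crabp1 (1.75) and Aldh1a1 (1.03) to Crabp2 (0.715). There the intervals separated Rara from Rxra and Rarb from Rarg, and all other neighbours overlapped. On this length Crabp1 stood above Rarg in the mutant and overlapped it in the heterozygote, and Dhrs3 stood above Rxra in the mutant alone. The order depends on which transcript the heart uses, which the table does not tell: with the median length of each gene's transcripts, Rxra came first in both libraries, at 28.7 in the mutant and 24.4 in the heterozygote, above Dhrs3 at 27.2 in the mutant and 17.6 in the heterozygote. By fold, the level of Rarg rose most, to 16.6 in the mutant and 15.2 in the heterozygote. Rarg then stood above Crabp1 in both libraries, and Crabp1 stayed at 5.82 in the mutant and 1.75 in the heterozygote. Rarb had 22.2 in the mutant and 23.3 in the heterozygote.

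Beyond the 9 genes, 41 others of the pathway were listed, of which 40 were in the table and 24 reached 1 CPM. Of these, 11 were higher in the mutant, against 48.8% of all genes, and 13 lower. Their median log2 ratio was -0.01, close to that of all genes. At least 1.5-fold apart were 1 that was higher, against 3.45% of all genes, and 1 that was lower, against 1.88%. The higher is Cyp26b1, an enzyme that degrades retinoic acid, with 115 reads in the mutant and 32 in the heterozygote. The mutant level of 7.90 CPM was 3.34-fold (2.24 to 5.11) that of the heterozygote, at 2.37 CPM. Its relative Cyp26a1, singled out after its values were seen, had 10 reads in the mutant and 1 in the heterozygote, a ratio of 9.29 (1.32 to 403) under the 1 CPM floor. The lower is Rbp7, a retinol binding protein gene of capillaries, with 8 reads in the mutant and 35 in the heterozygote (ratio 0.212, 0.0851 to 0.466).

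Apart from Rbp7, the genes over 1 CPM that supply the pathway were less than 1.5-fold apart. Among 10 uptake and storage genes, 4 reached 1 CPM. Dgat1, which can esterify retinol, had 270 reads in the mutant and 229 in the heterozygote (ratio 1.10, 0.915 to 1.31). Stra6, the retinol uptake receptor and likewise singled out after its values were seen, had 10 reads in the mutant and 1 in the heterozygote. Among 13 enzymes of retinol and retinal turnover, 7 reached 1 CPM, with log2 ratios from -0.32 to 0.21. Rdh10, which makes the retinal for embryonic synthesis in the mouse and was also singled out afterwards, had 43 reads in the mutant and 41 in the heterozygote (ratio 0.975, 0.620 to 1.53). The most abundant of them, the alcohol dehydrogenase gene Adh5 (ratio 0.860, 0.785 to 0.941) and the retinol dehydrogenase gene Rdh14 (1.16, 1.01 to 1.33), lay on opposite sides of 1. Fabp5, a fatty acid carrier that also binds retinoic acid, had 1737 reads in the mutant and 2080 in the heterozygote (ratio 0.776, 0.728 to 0.827).

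The remaining X receptors and the cofactors gave a similar picture. Rxrb had 461 reads in the mutant and 333 in the heterozygote (ratio 1.29, 1.11 to 1.49), and its log2 ratio of 0.35 was 0.12 after removal of the trend on GC content and length. Rxrg had 6 reads in the mutant and 11 in the heterozygote. All 10 receptor cofactors reached 1 CPM, 5 on either side of 0, with a median log2 ratio of 0.03 and none 1.5-fold apart. The co-repressor gene Ncor1 had a ratio of 0.996 (0.948 to 1.05) and the acetyltransferase gene Ep300 1.16 (1.08 to 1.25).

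**Figure D3:**
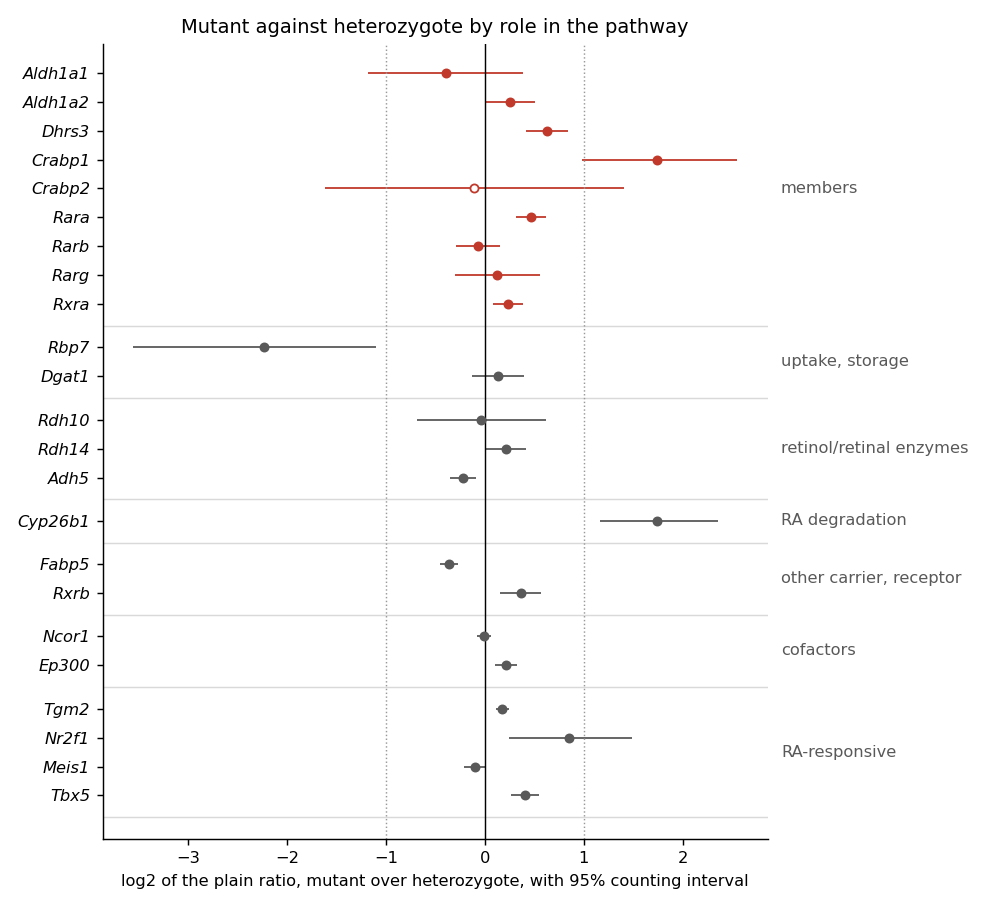
Log2 of the plain ratio of mutant over heterozygote, with 95% counting intervals, for the 9 members (red; the open point is Crabp2, under 1 CPM) and for the other pathway and target genes named in the text at or above 1 CPM (grey), grouped by role. Dotted lines mark 2-fold; Crabp1 and Cyp26b1 lie near 3.3-fold higher, Rbp7 lies below the lower line, and most others lie close to 0.

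Genes that respond to retinoic acid in embryos were read in the same way. Of 14 listed, 6 reached 1 CPM. Of these, 4 were higher in the mutant, against 48.8% of all genes, and 2 lower, with a median log2 ratio of 0.25. At least 1.5-fold higher was 1, against 3.45% of all genes, and 0 were 1.5-fold lower, against 1.88%. The higher is Nr2f1, an orphan receptor gene, with 68 reads in the mutant and 35 in the heterozygote (ratio 1.81, 1.18 to 2.80). The log2 ratio of Nr2f1, 0.66, was 0.44 after removal of the trend on GC content and length. Nr2f1 too was under 5 CPM in both libraries, the level from which that trend was fitted. The most abundant were the transglutaminase gene Tgm2 (1.13, 1.08 to 1.18) and the homeobox gene Meis1 (0.934, 0.863 to 1.01). After removal of that trend the log2 ratio of Tgm2 was 0.01 in place of 0.18, and that of Meis1 -0.03 in place of -0.10. Tbx5, a T-box gene of the inflow heart and singled out after its value was seen, had 967 reads in the mutant and 680 in the heterozygote (ratio 1.32, 1.20 to 1.46). The listed genes Hoxb1, Cdx1 and Stra8 had 0 reads in both libraries, which allows up to 3 counts in each.

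Promoter sequences of 8 members were in the RefSeq table for GRCm38.p6, with 16 windows of 300 bases between them, and that of Crabp2 was not. The windows were searched on both strands for direct repeats of the nuclear receptor core motif (a purine, G, then G or T, then T, then C or G, then A) with 5, 2 or 1 bases between the copies, named DR5, DR2 and DR1. A DR5 was found in 1 of the 16 windows, that of Rarb, against 0.323% of all 32851 windows, and DR2 and DR1 in none, against 0.472% and 0.609%. The Rarb element begins 53 bases before the transcript start. Of the other listed genes, only windows of Cyp26a1, Cyp26b1, Stra6, Rbp7 and Nr2f1 were also read. Each of these was at least 1.5-fold apart or singled out after its values were seen. Cyp26a1 has an element of the same kind on the opposite strand, 32 bases before its start. The 250 bases before the start are given for Rarb and Cyp26a1, because they hold the element. They are also given for Crabp1 and Dhrs3, because these members differed most between the libraries. Capitals mark the copies of the core motif in such a repeat, and lower case alone means that no repeat was found in these letters.
Rarb, chr14:16575477-16575726, minus strand: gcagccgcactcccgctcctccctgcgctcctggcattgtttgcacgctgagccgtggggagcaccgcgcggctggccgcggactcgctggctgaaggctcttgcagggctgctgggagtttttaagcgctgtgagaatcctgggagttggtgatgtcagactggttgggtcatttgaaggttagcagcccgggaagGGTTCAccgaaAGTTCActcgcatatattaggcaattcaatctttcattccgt
Cyp26a1, chr19:37697558-37697807, plus strand: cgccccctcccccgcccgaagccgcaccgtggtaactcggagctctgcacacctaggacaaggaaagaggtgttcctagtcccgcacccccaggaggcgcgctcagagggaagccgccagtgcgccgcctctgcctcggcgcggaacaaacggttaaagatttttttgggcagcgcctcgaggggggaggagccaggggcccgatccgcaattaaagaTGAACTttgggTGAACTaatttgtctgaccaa
Crabp1, chr9:54764498-54764747, plus strand: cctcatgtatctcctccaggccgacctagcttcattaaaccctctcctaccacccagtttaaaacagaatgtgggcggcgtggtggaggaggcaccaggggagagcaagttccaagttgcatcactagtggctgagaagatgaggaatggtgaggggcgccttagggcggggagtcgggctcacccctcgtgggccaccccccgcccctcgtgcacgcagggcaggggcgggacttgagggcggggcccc
Dhrs3, chr4:144892577-144892826, plus strand: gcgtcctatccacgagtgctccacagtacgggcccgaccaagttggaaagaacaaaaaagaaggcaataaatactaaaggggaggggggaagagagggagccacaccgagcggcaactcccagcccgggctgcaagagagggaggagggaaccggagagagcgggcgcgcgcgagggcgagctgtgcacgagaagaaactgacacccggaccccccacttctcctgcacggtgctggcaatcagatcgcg
Read 5′ to 3′ in its own direction, the Rarb element is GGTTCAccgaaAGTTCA and the Cyp26a1 element, on the other strand, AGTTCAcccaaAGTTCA. Of the genes that carry an element in these windows, Rarb had a ratio of 0.954 (0.818 to 1.11). It had 340 reads in the mutant and 331 in the heterozygote. Cyp26a1, under the 1 CPM floor, had 9.29 (1.32 to 403), with 10 reads in the mutant and 1 in the heterozygote. With so few reads in a gene chosen for its values, nothing was concluded from setting these ratios side by side. The windows of Crabp1 and Dhrs3 hold no such repeat, which says nothing about elements elsewhere. The single motif AGGTCA, searched on both strands, was in 3 of the 16 member windows, 1 each of Rara, Rarg and Rxra, against 16.3% of all windows.

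The windows also differed in CpG content, which marks many Polycomb-bound promoters in the mouse. The Crabp1 window had 65.0% GC and 17 CpG dinucleotides, more than 68.6% of all windows, whose median was 7. The Dhrs3 windows had 21, 10 and 9, and those of Rara 20, 21, 5 and 6. The Rarb window had 17, the Rarg windows 10 and 12, the Aldh1a2 window 50, and the richest window of Rxra 55. The Aldh1a1 windows had 3 and 1, and the other Rxra window had 1. The part of CpG content in the differences was not tested.

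**Figure D4:**
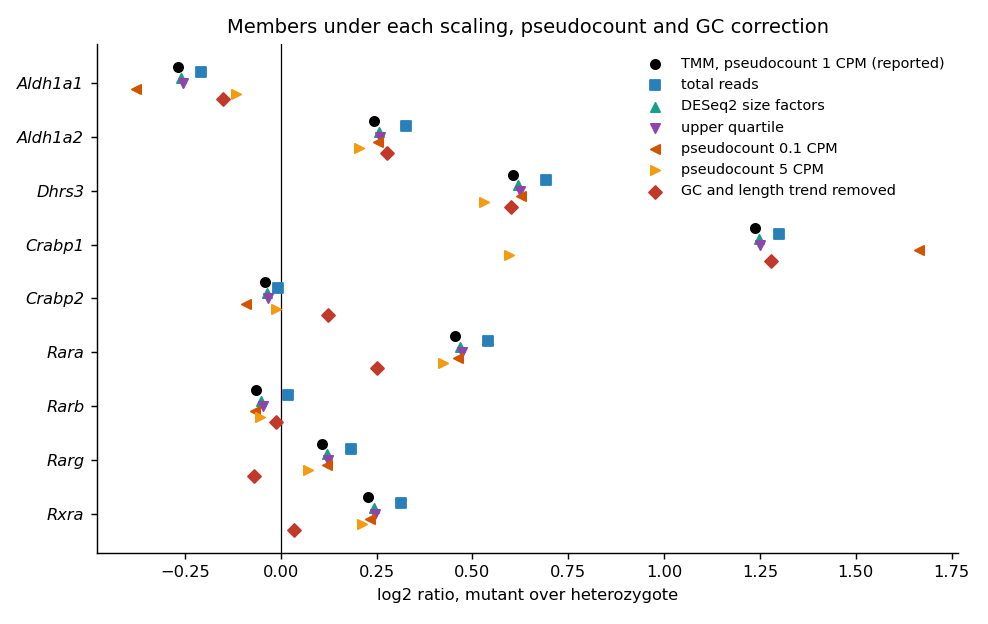
Log2 ratio of mutant over heterozygote for each of the 9 genes under the reported setting and 6 others (scaling by total reads, DESeq2 size factors or upper quartile, a pseudocount of 0.1 or 5 CPM, and removal of the GC and length trend). Crabp1, Dhrs3, Rara, Aldh1a2 and Rxra stay above 0 in each, Aldh1a1 stays below 0, and Rarb, Rarg and Crabp2 lie on either side of 0.

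Across these settings the log2 ratios of Crabp1, Dhrs3, Rara, Aldh1a2 and Rxra stayed above 0. That of Rxra was close to 0 after removal of the trend on GC content and length. Log2 ratios ranged from 0.59 to 1.66 for Crabp1, from 0.53 to 0.69 for Dhrs3, from 0.25 to 0.54 for Rara, from 0.20 to 0.33 for Aldh1a2 and from 0.03 to 0.31 for Rxra. Those of Rarb ranged from -0.07 to 0.02, with the value above 0 under scaling by total reads, and those of Rarg from -0.07 to 0.18, with the value below 0 after removal of the trend on GC content and length. The sizes of Crabp1 and Dhrs3 depended on the pseudocount: with 5 CPM added, Crabp1 was under 2-fold and Dhrs3, at 0.53, under 1.5-fold.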

How the data were processed

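Total RNA of heart apices was sequenced after preparation of full-length transcript libraries, as the labels' protocols state. The deposited files hold whole-number read counts of each gene model and CPM, which are those counts divided by the library total and multiplied by 1000000, per the file headers. A fold ratio of heterozygote over mutant and a p-value from an unnamed test, deposited by the authors, were not used. The sources used here name no aligner, counting program, strand setting or build. The Crabp1 model of the table does not contain the GRCm38.p6 start of Crabp1, so gene coordinates, with 1 added to the start, are those of another build. Recomputed CPM differed from the authors' by at most 4.91e-11.

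The 29595 gene models were summed by symbol. Counts were scaled by TMM (edgeR 4.0.16, R 4.3.3; factors 1.03 for the mutant and 0.970 for the heterozygote). Ratios carry exact conditional Poisson intervals (SciPy 1.17.1), which describe counting error alone: without molecular identifiers, reads are not independent molecules. The log2 ratio has a pseudocount of 1 CPM, and genes were tested for size where the higher value reached 1 CPM. The trend on GC content and length was quadratic and used genes averaging 5 CPM or more, with values from the longest GENCODE M21 transcript for 81.8% of tested genes and all 9 members. Alternatives were scaling by total reads, upper quartile and DESeq2 1.42.0 size factors, pseudocounts of 0.1 and 5 CPM, no floor and a floor of 5 CPM. The steps were tested on simulated data. Of 133 list entries, 126 matched a symbol and 6 a synonym, and Cyp26c1 was not matched. Named genes are the members and, from each pathway or target list, the 2 highest by mean and any 1.5-fold apart; marker lists give their sum and the 2 highest. Some listed genes are not reported here by name but enter the counts and medians of their lists. Exceptions are stated, and defining markers at or near 0 are also named. The members, lists, thresholds and alternatives were chosen with earlier results of these data known. With 2 libraries each gene gives 1 ratio, so no gene was sought for a pattern like a member's.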

Additional observations from a re-analysis of the deposited data

How the results depend on the processing

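No paired analysis was possible because each genotype has 1 library and the labels give no replicate numbers. No library could be left out. The count of members at least 2-fold higher was 0 instead of 1, and the count at least 1.5-fold higher 1 instead of 2, both with a pseudocount of 5 CPM, which lowers the log2 ratio of Crabp1 to 0.59 and that of Dhrs3 to 0.53, and with a floor of 5 CPM, which leaves Crabp1 out. Scaling by total reads, which shifts the median log2 ratio of all genes by 0.08, gave 2 instead of 1 listed pathway genes at least 1.5-fold higher. Removal of the trend on GC content and length gave 0 instead of 1 target genes at least 1.5-fold higher. The count of members with an interval above 1 was 5 under each scaling. It was not computed after removal of the trend on GC content and length, which lowered the log2 ratio of Rxra to 0.03. The median log2 ratio of the members was 0.32 with total reads and 0.14 after removal of the trend. The order of levels per kilobase depended on the transcript length used. Depth limits Crabp2, Cyp26a1 and Stra6, each with at most 10 reads in a library.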

Other observations

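The genome neighbourhood of the 9 genes was read from the table's own coordinates, as the nearest gene model on either side that reached 1 CPM. Models under 1 CPM were passed over, so some neighbours are remote. Distances ran from 52 bases, for Top2b beside Rarb, to 1471739 bases, for 4732496O08Rik beside Dhrs3. Of these 18 neighbours, 0 were at least 1.5-fold apart by the log2 ratio with 1 CPM added. These log2 ratios ran from -0.40 to 0.27 with a median of -0.07. By the plain ratio, used for the single genes below, AK170612 beside Aldh1a1 was past 1.5-fold, at 0.587 (0.260 to 1.27). It had 12 reads in the mutant and 19 in the heterozygote. Crabp1, at a ratio of 3.33, lies between Wdr61 at 0.778 (0.703 to 0.862) and Ireb2, an iron regulatory protein gene, at 0.950 (0.861 to 1.05). Wdr61 had 697 reads in the mutant and 832 in the heterozygote, and Ireb2 811 in the mutant and 793 in the heterozygote. Dhrs3, at 1.55, lies between the remote 4732496O08Rik at 0.977 (0.780 to 1.22) and Vps13d, 46580 bases away, at 1.04 (0.913 to 1.18). Rara, at 1.38, is flanked by the cell cycle genes Cdc6, at 0.950 (0.838 to 1.08), and Top2a, at 0.858 (0.827 to 0.890). Rxra, at 1.18, has the collagen gene Col5a1 on one side, with 2931 reads in the mutant and 2254 in the heterozygote (ratio 1.21, 1.14 to 1.28).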
